A study of Mus musculus with 9 samples.

Results

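The genes described here are 9 transcription factors that set or hold the identity of T helper cells: Gata3, Tbx21, Foxp3, Bcl6, Maf, Irf4, Batf, Tcf7 and Rora. They were taken by gene symbol from the 55851 genes of an RNA sequencing table of mouse lung, where each symbol belonged to a single gene identifier, and all 9 passed the filter on low values that left 17716 genes for testing. The study sequenced total RNA of lung cells from female C57BL/6J mice in 9 libraries, 3 in each of 3 groups, all with the time label 7 weeks. The groups were wild-type mice given a phosphate-buffered saline challenge (WT PBS, replicates 1, 2 and 3), wild-type mice given an ovalbumin challenge (WT OVA, replicates 5, 6 and 9) and mice that lack DJ-1, given an ovalbumin challenge (DJ-1 KO OVA, with DJ1_KO_OVA_263, DJ1_KO_OVA_266 and DJ1_KO_OVA_267 as its libraries). Ovalbumin is a protein allergen used to model allergic airway disease, and DJ-1 is the product of Park7, a guard against oxidative stress. With no saline-challenged knockout group, a difference of genotype that is present before challenge and one that arises with challenge cannot be told apart. The labels do not say whether a library is a single animal, so each p-value is set against a spread of libraries that may be technical.

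A naive CD4 T cell takes a fate under the direction of a lineage factor: TBX21 (T-bet) for Th1 cells, GATA3 for Th2 cells, FOXP3 for regulatory T cells and BCL6 for follicular helper T cells. BATF, IRF4 and MAF act with these factors after the T cell receptor is engaged, TCF7 (TCF-1) marks naive and early T cells and is induced at the start of T cell development, and RORA takes part in Th17 cells and in group 2 innate lymphoid cells (ILC2). In allergic lung, GATA3 drives the type 2 cytokine genes in both Th2 cells and ILC2. Several of these factors are also made outside T cells, such as IRF4 and BCL6 in B cells and IRF4 and MAF in macrophages, so a level in lung RNA is a sum over cell types.

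Libraries held 20812192 to 29080130 reads, recovered from the deposited FPKM (reads divided by gene length and by a library size that the authors set). In every library the 10 lung epithelial markers were present as a group, with Sftpc, a surfactant gene, at 5089 to 39155 FPKM. Park7 stood at 3.96 to 7.29 FPKM in the knockout libraries and at 36.7 to 60.5 FPKM in the wild-type libraries. Library DJ1_KO_OVA_263 stood apart from the other 8 in genes of developing T cells, and WT OVA replicate 6 stood closer to the saline libraries than the other WT OVA libraries did in genes that answer to allergen, such as Chil3, a macrophage chitinase-like gene (2101 FPKM against 10783 and 11715). Values without each of these libraries are therefore given where a call, a count or a difference moves. Long genes were also higher and short genes lower in the knockout libraries than in WT OVA. The median log2 difference ran from -0.39 for the 3006 genes under 1000 bases to 0.42 for the 2331 genes of at least 8000 bases, and the difference of each factor with this trend removed is given beside its value in that comparison. Both library remarks and the length trend were added after the values had been seen.

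The sequence around the start site of the 3 factors that rose in the knockout is shown together with that of Bcl6, which did not. Of the 9 genes, 8 matched the RefSeq start-site table of build GRCm38.p6, with 11 windows of 300 bases (250 before and 50 after the start). Foxp3, Bcl6 and Tcf7 each had more than 1 start, and the window with the most motif matches is shown for Foxp3 and Bcl6. Each sequence is written 5′ to 3′ on the strand of the gene, and capitals mark matches, on either strand, to a letter motif of the 9 factors themselves.
Gata3 (chr2:9878551-9878850, minus strand): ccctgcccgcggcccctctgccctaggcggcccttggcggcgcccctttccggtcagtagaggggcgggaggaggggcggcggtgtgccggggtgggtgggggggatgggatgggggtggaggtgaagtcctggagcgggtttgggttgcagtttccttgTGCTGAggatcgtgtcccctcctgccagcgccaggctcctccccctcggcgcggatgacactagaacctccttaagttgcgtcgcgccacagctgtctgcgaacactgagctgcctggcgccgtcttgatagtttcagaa
Irf4 (chr13:30748983-30749282, plus strand): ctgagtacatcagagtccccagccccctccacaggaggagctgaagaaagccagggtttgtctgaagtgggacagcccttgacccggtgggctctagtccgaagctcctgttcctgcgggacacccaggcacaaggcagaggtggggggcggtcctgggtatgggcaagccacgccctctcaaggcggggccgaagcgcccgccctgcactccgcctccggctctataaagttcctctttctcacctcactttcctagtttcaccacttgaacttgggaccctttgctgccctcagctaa
Foxp3 (chrX:7580233-7580532, plus strand): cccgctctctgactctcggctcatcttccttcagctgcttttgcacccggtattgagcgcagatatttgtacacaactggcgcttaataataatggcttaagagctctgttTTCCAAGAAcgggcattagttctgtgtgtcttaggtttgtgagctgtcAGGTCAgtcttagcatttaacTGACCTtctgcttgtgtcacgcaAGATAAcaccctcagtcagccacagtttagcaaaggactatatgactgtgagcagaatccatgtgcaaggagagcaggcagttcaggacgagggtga
Bcl6 (chr16:23981234-23981533, minus strand): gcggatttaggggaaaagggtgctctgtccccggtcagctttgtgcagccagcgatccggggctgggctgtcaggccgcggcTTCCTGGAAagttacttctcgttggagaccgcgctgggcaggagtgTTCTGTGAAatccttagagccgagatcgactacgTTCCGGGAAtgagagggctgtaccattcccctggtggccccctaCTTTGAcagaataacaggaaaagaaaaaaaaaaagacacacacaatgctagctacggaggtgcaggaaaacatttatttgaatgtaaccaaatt
The motifs searched, with the share of all 32851 windows of this length that held each, were AGATAA for GATA factors (11.2%), TCACACCT for T-box factors (1.27%), TGTTTAC for forkhead factors (3.65%), TTCNNNGAA for BCL6 (8.30%) and TGCTGA for MAF (19.5%). The others were GAAA followed after 2 bases by GAAA for IRF factors (3.44%), TGANTCA for AP-1 factors such as BATF (7.81%), CTTTGA for TCF factors (16%) and AGGTCA for ROR factors (16.3%). No searched motif overlapped another among the matches shown. The Gata3 window held 1 match, to the MAF letters, 90 bases before the start, in a sequence of 67.3% G and C. The Irf4 window, of 61% G and C, held none. The Foxp3 window held 4 matches in 47.7% G and C: 1 to the GATA letters 47 bases before the start, 1 to the BCL6 letters and 2 to the ROR letters on opposite strands. The Bcl6 window held 3 matches to the letters of its own factor and 1 to the TCF letters. Since the Irf4 window held no match, the 3 windows shown of the genes that rose could share no motif. The Gata3 and Foxp3 windows shown shared none, though the other Foxp3 window held a match to the MAF letters. The other Bcl6 window, not shown because it held fewer matches, held 1, to the BCL6 letters. A match is a description of the sequence, not of binding.

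Among themselves the 9 factors covered a wide range of levels. In WT OVA lung the mean level per length fell in the order Batf (28.5 ± 6.61 FPKM, SD, n = 3), Tcf7 (16.6 ± 0.599), Bcl6 (6.18 ± 1.52), Tbx21 (3.86 ± 0.627), Irf4 (3.71 ± 0.863), Rora (2.90 ± 0.586), Maf (2.38 ± 0.232), Gata3 (1.85 ± 0.210) and Foxp3 (1.28 ± 0.637). Batf and Tcf7 did not overlap each other or the rest, while from Bcl6 down each neighbour overlapped the next in its library values except Maf and Gata3. Batf and Tcf7 were the 2 highest factors in all 6 wild-type libraries. The order differed in DJ-1 KO OVA lung, where mean Irf4 (19.4 ± 11.9 FPKM) stood next to Batf (25.2 ± 11.3), and Gata3 (8.62 ± 3.66) stood above Bcl6 (6.27 ± 1.74), Maf (5.25 ± 2.28), Rora (5.12 ± 1.48), Tbx21 (4.90 ± 1.28) and Foxp3 (4.17 ± 2.30). The Tcf7 mean of 111 ± 140 FPKM in that group came from a single library.

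**Figure D1:**
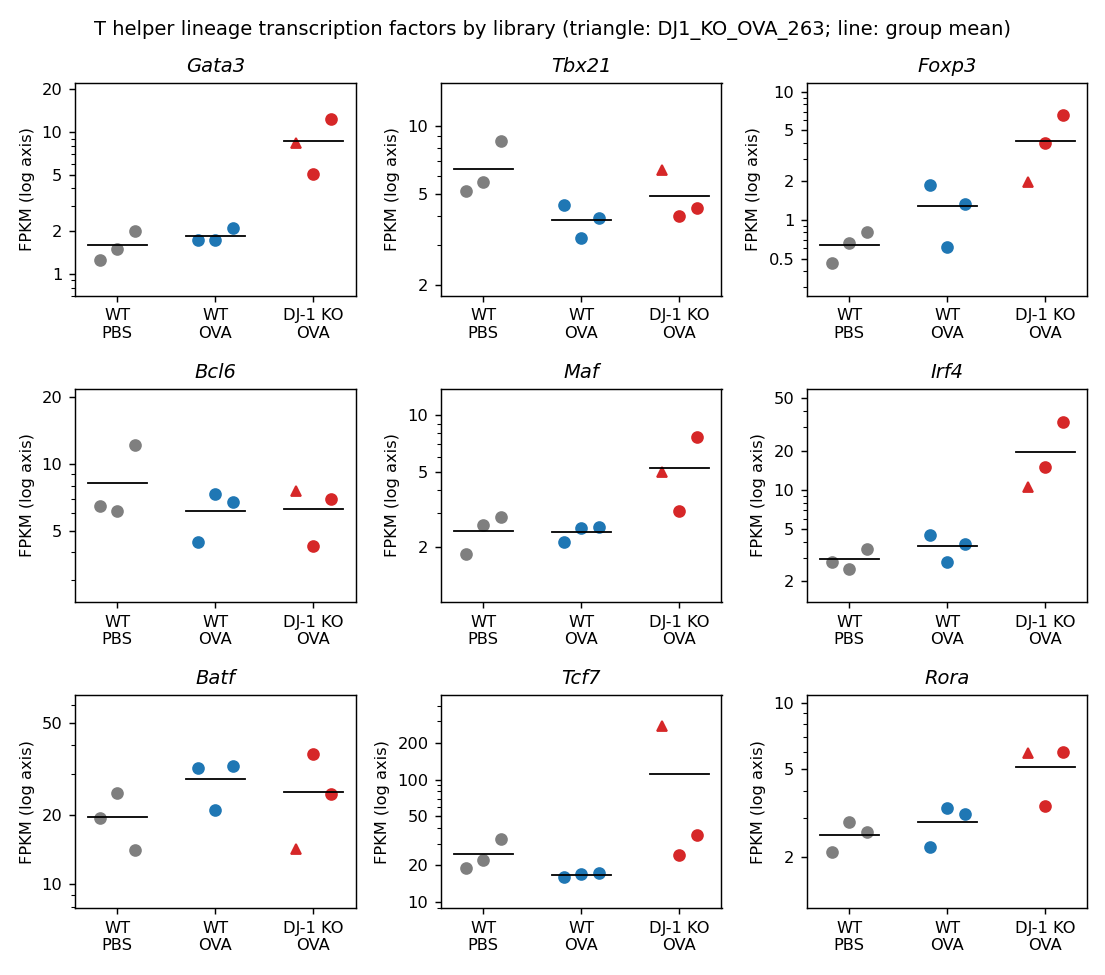
FPKM (log axis) of each factor in each library, by group; points are libraries, the triangle is DJ1_KO_OVA_263 and the line is the group mean of 3 libraries. Gata3, Irf4 and Foxp3 sit higher in all 3 DJ-1 KO OVA libraries than in any wild-type library, and Tcf7 is set by the triangle at 272 FPKM.

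The comparison of DJ-1 KO OVA with WT OVA asks what the lack of DJ-1 changes once the lung has been challenged. Of the 9 factors, 3 rose (Irf4, Gata3 and Foxp3) and none fell, where 14.2% of all genes tested were called and 5.93% were called higher. These 3 are the regulators of Th2 cells (Gata3) and of regulatory T cells (Foxp3) and a partner of both (Irf4). The Th1 factor Tbx21, the follicular factor Bcl6 and Batf were not called and overlapped between the groups. In 6 of 9 factors every knockout library lay above every WT OVA library, as did 18.4% of all genes. The median log2 difference of the 9 was 0.92, beside 0 for all genes. Without DJ1_KO_OVA_263 the same 3 factors were called, where 7.25% of all genes were called and 3.82% called higher. Without WT OVA replicate 6 the factors called were Irf4 and Gata3, where 2.55% of all genes were called and 0.79% called higher. With the length trend removed the same 2 factors were called, where 11.1% of all genes were called and 5.21% called higher. The median difference of the 9 was then 0.60.

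Gata3, the factor that opens the type 2 cytokine locus, stood in WT OVA at 1.74, 1.72 and 2.10 FPKM (replicates 5, 6 and 9), and at 8.37, 5.10 and 12.4 FPKM in DJ1_KO_OVA_263, DJ1_KO_OVA_266 and DJ1_KO_OVA_267. All 3 knockout libraries were above all WT OVA libraries, and the lowest knockout library was DJ1_KO_OVA_266. On the scale of log2(FPKM + 0.5), Gata3 (chr2:9857078-9890034, minus strand, GRCm38.p6) was higher by 1.88 (SE 0.28), which is 3.67-fold, with a limma adjusted p of 0.00676. Without DJ1_KO_OVA_263 the difference was 1.86 (limma adjusted p = 0.0122), and without WT OVA replicate 6 it was 1.84 (limma adjusted p = 0.0282). The call held in each of the 9 fits that left out a library (1.59 to 2.19). It also held in the other 10 alternatives, at 1.85 with the length trend removed and 1.75 with the trends of length and GC content removed.

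Irf4, which is induced by antigen receptor signals and which Th2 cells need, showed the largest difference of the 9. Its levels were 4.49, 2.79 and 3.86 FPKM in WT OVA and 10.5, 14.9 and 32.9 FPKM in the knockout, in the same library order. The groups did not overlap, and DJ1_KO_OVA_267 was higher than DJ1_KO_OVA_266 by more than the whole WT OVA range. Irf4 (chr13:30749226-30766976, plus strand) was higher by 2.10 (SE 0.36), a 4.29-fold difference with a limma adjusted p of 0.0104, and by 2.45 without DJ1_KO_OVA_263 (limma adjusted p = 0.00376). This call too held in the 9 fits without a library (1.65 to 2.45, the lowest without DJ1_KO_OVA_267) and in the other 10 alternatives. It was 1.93 without WT OVA replicate 6 (limma adjusted p = 0.0407) and 1.97 with the length trend removed (limma adjusted p = 0.0129).

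Foxp3, which defines regulatory T cells, was the least abundant of the 9 in WT OVA, at 1.89, 0.620 and 1.34 FPKM (166, 65 and 121 reads). In the knockout it stood at 1.97, 3.97 and 6.57 FPKM (311, 429 and 735 reads). DJ1_KO_OVA_263 lay just above WT OVA replicate 5, and the other 2 knockout libraries lay well above it. Foxp3 (chrX:7573644-7595245, plus strand) was higher by 1.33 (SE 0.38), 2.51-fold, with a limma adjusted p of 0.0444 and a 95% interval of 0.49 to 2.17. This call rested on the set of libraries and on the settings. Without DJ1_KO_OVA_263 the difference was 1.72 (limma adjusted p = 0.0180), but the call was lost in each of the other 8 fits that left out a library, with limma adjusted p from 0.0509 to 0.160. Among these, the difference without WT OVA replicate 6 was 1.03 (limma adjusted p = 0.125). With the length trend removed it was 1.23, close to the value above, and was not called (limma adjusted p = 0.0618). The annotation places Flicr, Ppp1r3f and Ccdc22 over parts of the same locus, each at no more than 0.374 FPKM in any library, and the sources used here do not state if reads were counted by strand.

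Tbx21, the master factor of Th1 cells (chr11:97098071-97115331, minus strand), stood at 4.46, 3.21 and 3.92 FPKM in WT OVA and at 6.36, 4.0 and 4.32 FPKM in the knockout. Of the knockout libraries only DJ1_KO_OVA_263 lay above the WT OVA range. The difference was 0.29 with a 95% interval of -0.25 to 0.83 (limma adjusted p = 0.411), 0.10 without that library, 0.18 without WT OVA replicate 6 and 0.47 with the length trend removed. Bcl6 (chr16:23965052-23988852, minus strand) stood at 4.45, 7.30 and 6.78 FPKM in WT OVA and at 7.58, 4.30 and 6.94 FPKM in the knockout, so the ranges of the groups overlapped almost in full. Its difference was 0.01 with a 95% interval of -0.66 to 0.69 (limma adjusted p = 0.980), and its sign changed with the settings (-0.24 with the length trend removed, 0.14 without WT OVA replicate 6).

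Batf, the AP-1 factor that binds together with IRF4, (chr12:85686669-85709087, plus strand) was the most abundant of the 9 in WT OVA and was not called. It stood at 32.0, 20.9 and 32.7 FPKM in WT OVA and at 14.2, 36.7 and 24.7 FPKM in the knockout. The lowest and the highest value were both in knockout libraries, and the lowest was DJ1_KO_OVA_263. The difference was -0.25 with a 95% interval of -1.01 to 0.51 (limma adjusted p = 0.632), 0.11 without DJ1_KO_OVA_263, -0.45 without WT OVA replicate 6 and 0.14 with the length trend removed. Batf had the shortest exon length of the 9 genes (1406 bases) and Rora the longest (13071 bases).

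Maf, which drives Il4 in Th2 cells and Il10 in several T cell types (chr8:115682942-115707794, minus strand), stood at 2.11, 2.49 and 2.53 FPKM in WT OVA and at 4.99, 3.10 and 7.65 FPKM in the knockout. The groups did not overlap, but the difference of 0.92 (SE 0.28) missed the threshold at a limma adjusted p of 0.0526. Rora (chr9:68653786-69388246, plus strand) stood at 2.23, 3.34 and 3.13 FPKM in WT OVA and at 5.91, 3.41 and 6.02 FPKM in the knockout, where DJ1_KO_OVA_266 lay next to WT OVA replicate 6. Its difference was 0.70 (SE 0.24), with a limma adjusted p of 0.0727. Both genes are long, and with the length trend removed the differences were 0.60 for Maf and 0.26 for Rora. Without DJ1_KO_OVA_266, both passed the threshold (limma adjusted p = 0.00694 for Maf and 0.0105 for Rora). In that fit 5683 of all genes were called, against 2510 with all 9 libraries.

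Tcf7 (chr11:52252371-52283331, minus strand) stood at 16.0, 16.8 and 17.1 FPKM in WT OVA, 3 values close to each other. In the knockout it stood at 272 FPKM in DJ1_KO_OVA_263 (28238 reads), and at 24.4 and 35.6 FPKM in DJ1_KO_OVA_266 and DJ1_KO_OVA_267. The value in DJ1_KO_OVA_263 was 7.64-fold above the next highest of the 9 libraries. The difference between groups was 1.87 (SE 0.70, limma adjusted p = 0.0878). Without DJ1_KO_OVA_263 it was 0.81 (limma adjusted p = 0.0865), and the remaining 2 knockout libraries were still above the 3 WT OVA libraries. Without DJ1_KO_OVA_266, in contrast, Tcf7 was called (2.53, limma adjusted p = 0.0192), in the fit where 5683 of all genes were called. With the length trend removed the difference was 1.96.

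**Figure D2:**
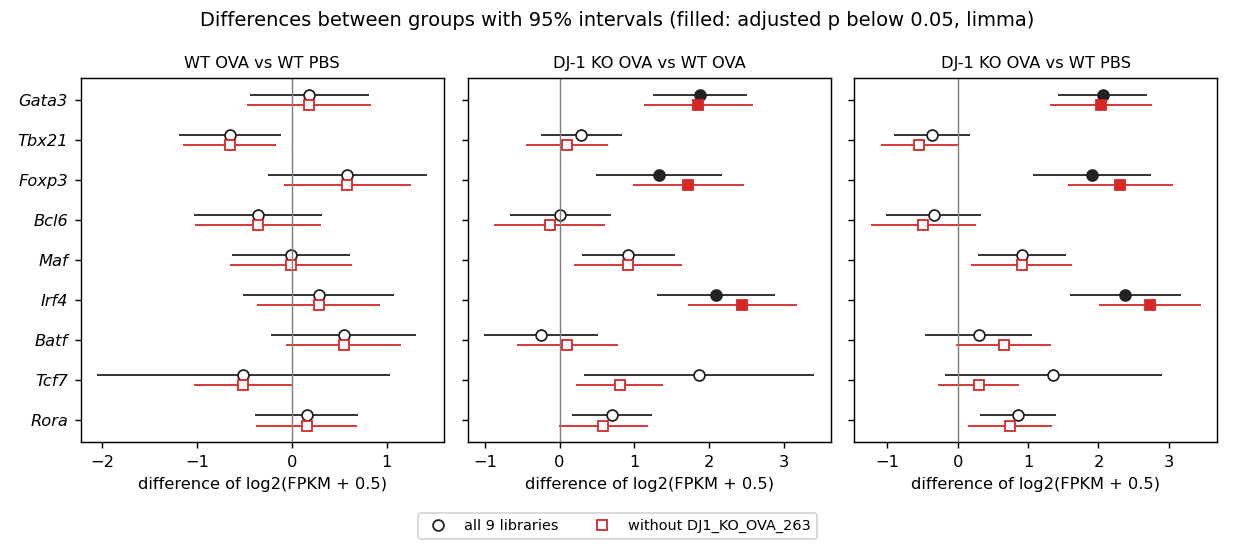
Difference of log2(FPKM + 0.5) between groups for each factor, with 95% intervals from limma; filled symbols have an adjusted p below 0.05, circles use all 9 libraries and squares leave out DJ1_KO_OVA_263. Irf4, Gata3 and Foxp3 are filled in both comparisons of the knockout, no factor is filled for WT OVA against WT PBS, and the Tcf7 interval narrows when the library is left out.

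Tcf7 in DJ1_KO_OVA_263 was read beside a list of 12 genes of developing T cells in the thymus, chosen after the values had been seen. All 12 were highest in that library, from 3.77-fold to 91.9-fold above the highest of the other 8 libraries, with a median of 11.4-fold. Because of that choice the count is a description, not a test, and the share of all genes highest there was not computed. Rag1, which cuts the antigen receptor genes, stood at 79.3 FPKM against at most 0.863 FPKM elsewhere, and Dntt, which adds bases at their joints, at 121 FPKM against at most 4.02 FPKM. Cd8b1, another gene of the list, stood at 151 FPKM there, and Cd4, which is not in the list, was also highest there, at 53.2 FPKM. The summed level of the list was 535 FPKM in that library and 30.3 to 48.1 FPKM in the other 8. A list of 5 genes of thymic epithelium, among them Foxn1 and Aire, summed to 0.676 FPKM there and to 0.298 to 0.534 FPKM elsewhere. DJ1_KO_OVA_263 was thus the highest library for this list too, but near the floor: Foxn1 had at most 3 reads and Aire at most 9 reads in any library. Where the RNA of the thymocyte genes came from was not tested.

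**Figure D3:**
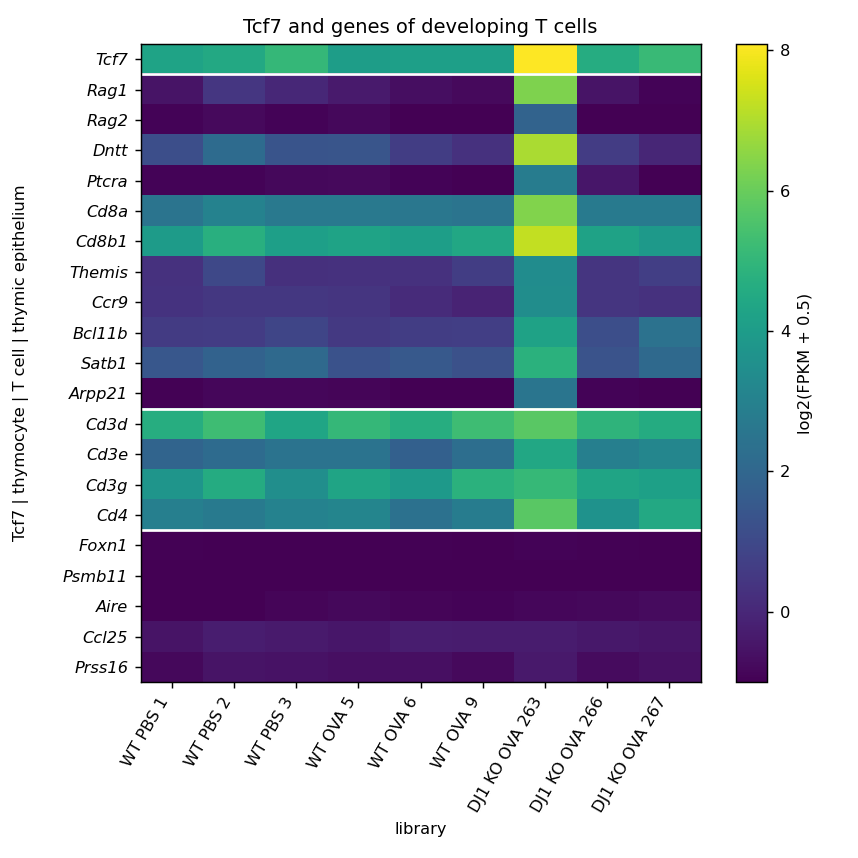
Level, as log2(FPKM + 0.5), of Tcf7, 11 of the 12 genes of developing T cells, the T cell genes Cd3d, Cd3e, Cd3g and Cd4, and 5 genes of thymic epithelium (rows) in the 9 libraries (columns). DJ1_KO_OVA_263 is the highest library for Tcf7 and the 11 thymocyte genes plotted, while the thymic epithelium genes are near the floor in every library.

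Because each library mixes lung cell types, a lower number of cells of a type and less RNA per cell cannot be told apart, and the same holds for a rise. The factors were also expressed relative to Cd3d, Cd3e and Cd3g, subunits of the T cell receptor complex, in the same library. This scaling does not tell cell number and RNA per cell apart, since several factors are also made outside T cells. The 3 Cd3 genes did not move together: in DJ-1 KO OVA against WT OVA, Cd3e rose by 1.33 (limma adjusted p = 0.0403), while Cd3d and Cd3g differed by 0.10 and 0.19. Their mean was higher by 0.54, or by 0.18 without DJ1_KO_OVA_263. Relative to this mean, 2 of the 9 factors were higher, Irf4 by 1.56 (limma adjusted p = 0.0203) and Gata3 by 1.34 (limma adjusted p = 0.0456). In that fit 11.8% of all genes were called and 0.48% were called higher. Foxp3 was higher by 0.79 and was not called (limma adjusted p = 0.279). Without DJ1_KO_OVA_263, all 3 were called: Irf4 at 2.27, Gata3 at 1.68 and Foxp3 at 1.55 (limma adjusted p = 0.000171, 0.00839 and 0.0146), where 7.47% of genes were called and 1.59% called higher. These calls depended on the settings, since between 0 and 3 factors were called over the alternatives. With the length trend removed none was called, at differences of 1.32 for Irf4 and 1.20 for Gata3 (limma adjusted p = 0.0624 and 0.0852). Without WT OVA replicate 6 none was called either, at 1.59 for Irf4 and 1.50 for Gata3 (limma adjusted p = 0.0807 and 0.0855). Relative to Cd3, Batf was lowest in DJ1_KO_OVA_263 (-1.22, against 0.43 to 1.16 in the other 8 libraries) and Tcf7 highest (2.99, against 0.02 to 1.60). The mean of the Cd3 genes that was subtracted was itself highest in DJ1_KO_OVA_263 (5.10, against 3.44 to 4.12 in the other 8 libraries).

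**Figure D4:**
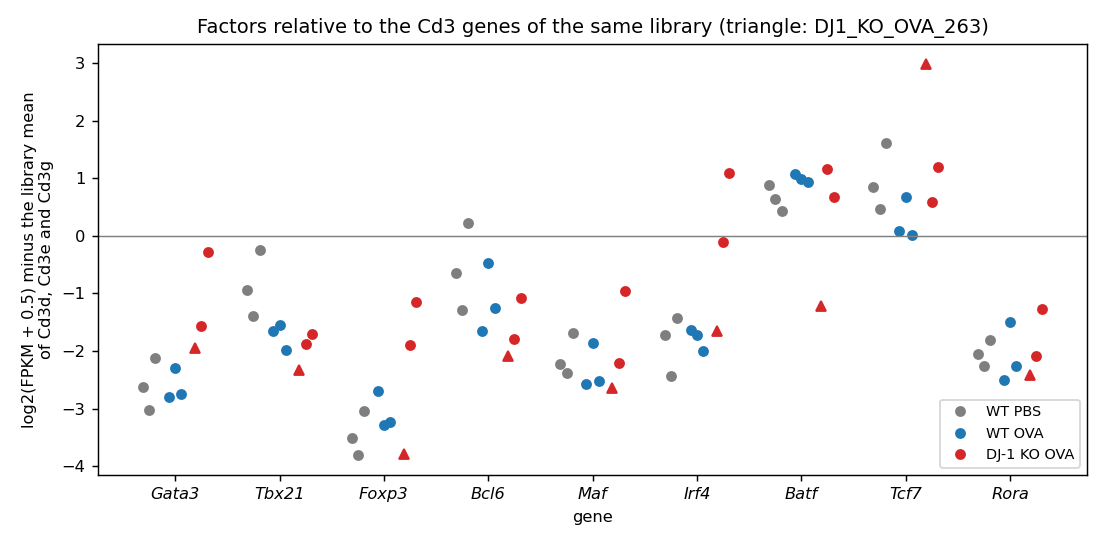
Level of each factor, as log2(FPKM + 0.5) minus the mean of Cd3d, Cd3e and Cd3g in the same library, by group; points are libraries and triangles mark DJ1_KO_OVA_263. Irf4 and Foxp3 in DJ1_KO_OVA_266 and DJ1_KO_OVA_267 lie above every other library, while the triangle lies within the wild-type range for both.

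Ratios of 1 factor to another in the same library do not depend on how libraries are scaled; those given here were chosen after the values had been seen and have no test. Gata3 divided by Tbx21, the factors of Th2 and Th1 cells, was 0.245, 0.265 and 0.233 in WT PBS, 0.391, 0.537 and 0.534 in WT OVA, and 1.32, 1.27 and 2.87 in DJ-1 KO OVA. Each level is a sum over cell types, so this ratio is not a ratio of Th2 to Th1 cells. No value of a group overlapped that of another group, and Gata3 stood below Tbx21 in all 6 wild-type libraries and above it in all 3 knockout libraries. For this and the other ratios, the share of other gene pairs without overlap was not computed. Of single genes, 37.2% did not overlap between DJ-1 KO OVA and WT OVA. That share was 14.8% between WT OVA and WT PBS, and 25.6% between the knockout and WT PBS. These shares are of single genes, so they cannot weigh the separation of a ratio chosen after its values had been seen. Gata3 divided by Tbx21 in DJ1_KO_OVA_263 was close to that in DJ1_KO_OVA_266. Foxp3 divided by Tbx21 was 0.0896, 0.116 and 0.0943 in WT PBS, 0.424, 0.193 and 0.343 in WT OVA, and 0.310, 0.992 and 1.52 in the knockout. For that ratio all WT OVA libraries lay above all WT PBS libraries, and DJ1_KO_OVA_263 lay within the WT OVA range. Irf4 divided by Bcl6, factors that oppose each other in B cells, was 0.431, 0.405 and 0.291 in WT PBS, 1.01, 0.382 and 0.569 in WT OVA, and 1.38, 3.46 and 4.74 in the knockout, where it lay above all wild-type values.

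The comparison of WT OVA with WT PBS asks what ovalbumin challenge does in wild-type lung. None of the 9 factors was called by limma, where 0.00564% of all genes (1 gene) were called and 6.47% had an unadjusted p below 0.05. The factor with the smallest p was Tbx21, at 5.14, 5.68 and 8.59 FPKM in WT PBS. All 3 WT OVA libraries lay below these values, by 0.65 on the log2 scale (SE 0.24, limma unadjusted p = 0.0222 and adjusted p = 0.729). Tcf7, at 19.1, 22.0 and 32.4 FPKM in WT PBS, also lay below in WT OVA without overlap (log2 difference -0.51), as did 7.52% of all genes. Foxp3 stood at 0.460, 0.660 and 0.810 FPKM in WT PBS, so WT OVA replicates 5 and 9 lay above that range and replicate 6 within it. Its difference was 0.59 (95% interval -0.25 to 1.43), and 0.89 without replicate 6 (limma adjusted p = 0.810). Gata3, at 1.26, 1.51 and 2.0 FPKM in WT PBS, differed by 0.18 (95% interval -0.45 to 0.81). The differences of the other 5 were 0.55 for Batf, 0.28 for Irf4, 0.16 for Rora, -0.01 for Maf and -0.36 for Bcl6. Without replicate 6, Batf was 0.75, Irf4 0.45 and Rora 0.06, and none of the 9 was called. For Batf and Irf4, replicates 5 and 9 lay above all WT PBS libraries. The share of all genes that did so without replicate 6 was not computed, and that replicate was singled out after its values had been seen. With the length trend removed Rora was 0.29.

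The comparison of DJ-1 KO OVA with WT PBS shares its groups with the comparisons above and is not independent of them. The factors called were Irf4, Gata3 and Foxp3, all higher, where 8.54% of all genes were called and 4.07% were called higher. Irf4, at 2.80, 2.49 and 3.54 FPKM in WT PBS, differed by 2.38 (limma adjusted p = 0.00498). Gata3 differed by 2.06 (limma adjusted p = 0.00350) and Foxp3 by 1.91 (limma adjusted p = 0.0155). The Foxp3 call was lost without WT PBS replicate 1 (limma adjusted p = 0.0631), WT PBS replicate 2 (limma adjusted p = 0.0587) or DJ1_KO_OVA_267 (limma adjusted p = 0.0578), at differences of 1.55 to 1.93. It was also lost without the filter on low values (limma adjusted p = 0.0582). Maf (1.82, 2.60 and 2.85 FPKM in WT PBS) and Rora (2.11, 2.89 and 2.60 FPKM in WT PBS) also lay above without overlap, as did 12.7% of all genes, by 0.91 and 0.86, and were not called. Tcf7 overlapped, since DJ1_KO_OVA_266 lay within the saline range, and its difference of 1.36 fell to 0.30 without DJ1_KO_OVA_263. Tbx21 and Bcl6 differed by -0.36 and -0.34 and Batf by 0.30.

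Genes known to accompany each factor were read from lists of up to 10 genes a lineage, and their counts stand beside the 5.93% of all genes that were called higher and the 8.24% called lower. In DJ-1 KO OVA against WT OVA, 5 of the 9 tested Th2 genes rose and none fell, with a median of 1.49. They include Il13, the cytokine of mucus production (2.31), Ccr8 (1.69) and Ccr4 (1.54), receptors that bring Th2 cells into tissue, and Il17rb, the interleukin 25 receptor (1.49). Of the 10 regulatory T cell genes 4 rose, Ctla4 (1.39), Itgae (1.34), Il2ra (1.22) and Tigit (1.06), with a median of 1.01. Il10, a product of regulatory T cells, had a difference of -0.73 and was not called. Of the 8 follicular helper genes 2 rose, Pdcd1 (1.15) and Cd40lg (1.06), while Cxcr5 differed by -0.58 without being called. Of the 10 Th1 genes 1 rose, near the share of all genes, and of the 9 Th17 genes 2 rose, Ahr (0.94) and Il1r1 (0.82). Of the 10 naive T cell genes Il7r rose (0.82) and 2 fell, among them Klf2, which keeps naive T cells in circulation (fell by 1.02). Medians were 0.25 for the Th1, 0.38 for the Th17, 0.62 for the follicular and 0.20 for the naive list. Without DJ1_KO_OVA_263, 3.82% of all genes were called higher. The counts of list genes that rose were then 5 for Th2, 5 for regulatory T cells, 2 for follicular, 2 for Th17, 1 for Th1 and 0 for naive genes. With the length trend removed they were 6, 4, 3, 1, 0 and 0 in the same order, where 11.1% of all genes were called and 5.21% called higher, and Klf2 was not called. Without WT OVA replicate 6 the counts were 4, 0, 0, 1, 0 and 0, where 0.79% of all genes were called higher, and no gene of these lists fell. The medians in that fit were 1.27 for Th2, 0.74 for regulatory T cell and 0.46 for follicular genes. Rescaling to equal FPKM sums moved all genes up by a median of 0.46, where 28.1% of all genes were called and 24.8% called higher. In that fit 9 of 9 Th2, 9 of 10 regulatory T cell, 4 follicular, 3 Th17, 3 Th1 and 1 naive gene rose, and no gene of these lists fell. In WT OVA against WT PBS no gene of these lists was called by limma, and the medians were 0.51 for Th2 and 0.38 for regulatory T cell genes.

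Of 30 factors that work beside the 9 (AP-1 subunits, IRF, RUNX, NFAT and NF-kB members and others), 3 rose and 2 fell, with a median of 0.47. Together these 5 are close to the 14.2% of all genes called. Tox, which is induced by lasting receptor signals, rose by 1.13, Nfkb1 by 0.94 and Nfatc2 by 0.86. Id3, an inhibitor of E proteins, fell by 1.10, and Jund, an AP-1 partner of BATF, fell by 0.96. The factors with repressor or cofactor roles toward GATA3 and BCL6, Zfpm1 and Prdm1, differed by 0.13 and 0.88 and were not called. These 2 were named for their roles after the values had been seen. Without DJ1_KO_OVA_263, Id3 and Jund still fell, while the 2 that rose were others, among them Batf3 (2.03), and Tox, Nfkb1 and Nfatc2 were not called. In that fit 7.25% of all genes were called. With the length trend removed none rose and Id3 and Jund fell, by 0.79 and 0.62, where 11.1% of all genes were called. With equal FPKM sums 15 rose and none fell, where 24.8% of all genes were called higher. Without WT OVA replicate 6 none of the 30 was called, where 2.55% of all genes were called.

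**Figure D5:**
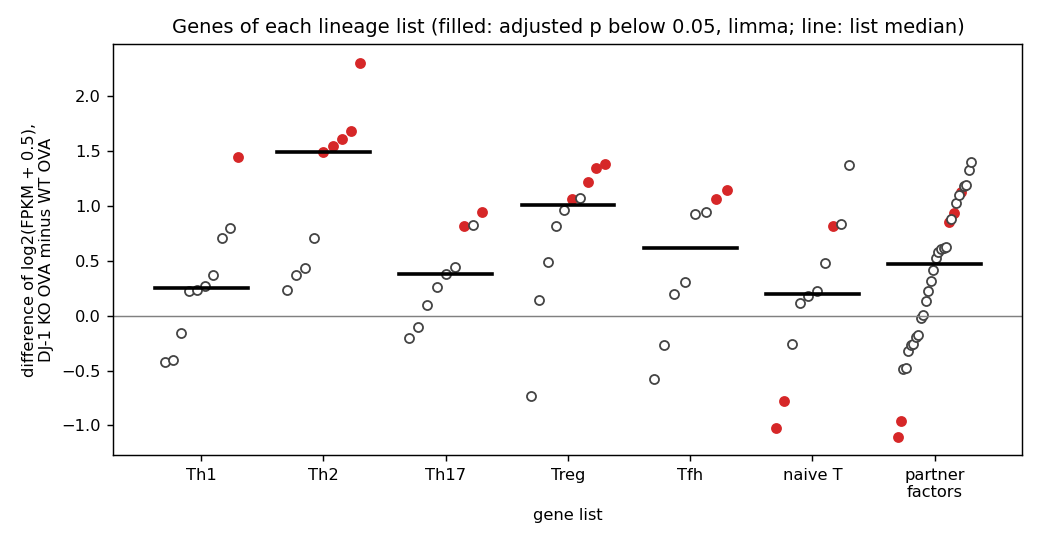
Difference of log2(FPKM + 0.5) in DJ-1 KO OVA against WT OVA for each gene of 6 lineage lists and of the partner factors; points are genes, filled points have an adjusted p below 0.05 (limma) and lines are list medians. The Th2 list has the highest median (1.49) with 5 of 9 genes filled, and the Th1 list has 1 of 10 filled.

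Markers of cell types moved with the groups as well, those that make these factors and others. Counts are read beside the shares of all genes called higher and lower in the same fit: 5.93% and 8.24% with all 9 libraries. They were 3.82% and 3.43% without DJ1_KO_OVA_263, 0.79% and 1.76% without WT OVA replicate 6, and 24.8% and 3.33% with equal FPKM sums. The list with the largest shift was that of neutrophils: 8 of 10 fell in DJ-1 KO OVA against WT OVA and none rose, with a median of -1.75. Among them Ly6g, a neutrophil surface protein, fell by 2.39 and S100a8, a subunit of calprotectin, fell by 3.17. Their summed level was 13132 to 19362 FPKM in WT OVA and 1448 to 4458 FPKM in the knockout. Without DJ1_KO_OVA_263, 7 fell, and without WT OVA replicate 6 or with equal FPKM sums 5 fell. Of 20 T cell markers 8 rose, including Cd6 (1.36), Cd5 (1.22) and Cd4 (1.84), with a median of 1.09. Without DJ1_KO_OVA_263, 3 rose and the median was 0.59. Without WT OVA replicate 6 none rose and the median was 0.92, and with equal FPKM sums 12 rose. The summed level of that list was 356 to 559 FPKM in WT OVA, 541 and 577 FPKM in DJ1_KO_OVA_267 and DJ1_KO_OVA_266, and 1680 FPKM in DJ1_KO_OVA_263. Of 13 ILC2 markers tested 6 rose, with a median of 0.82. The count was 5 without DJ1_KO_OVA_263, 2 without WT OVA replicate 6 and 9 with equal FPKM sums. Among them Il1rl1, the interleukin 33 receptor, rose by 1.61. That list summed to 97.9 to 136 FPKM in WT OVA and 126 to 190 FPKM in the knockout, and it shares 5 genes with the Th2 list (Il13, Il17rb, Il1rl1, Il5 and Ptgdr2). Beside Irf4, of 12 macrophage markers Mrc1 rose and Marco fell, with a median of -0.24 and 4 of 12 above 0. The median was 0.39 without DJ1_KO_OVA_263, with 10 of 12 above 0, and -0.43 without WT OVA replicate 6. Mrc1 was 1 of the 2 genes most like Irf4 over the libraries. Mrc1, the mannose receptor, stood at 24.1, 21.0 and 26.0 FPKM in WT OVA and at 63.3, 68.5 and 141 FPKM in the knockout. B cell markers, which accompany both Irf4 and Bcl6, went the other way: 5 of 10 fell and none rose, and their summed level was 321 to 429 FPKM in WT OVA and 116 to 274 FPKM in the knockout. Without DJ1_KO_OVA_263 1 B cell marker fell, without WT OVA replicate 6 none was called, and with equal FPKM sums 2 fell and 1 rose. Of 10 natural killer (NK) cell markers none was called, with a median of -0.54 and 2 of 10 above 0. The NK median was 0.05 with equal FPKM sums. That list summed to 395 to 770 FPKM in WT OVA and 258 to 391 FPKM in the knockout. Its member Prf1 was 1 of the 2 genes most like Tbx21. Of 10 dendritic cell markers 1 rose and none fell, with a median of 0.26. Without DJ1_KO_OVA_263 4 rose, with a median of 0.73, where 3.82% of all genes were called higher, and without WT OVA replicate 6 none was called. Of 10 plasma cell markers 1 rose and 1 fell, with a median of 0.001, and 2 rose without DJ1_KO_OVA_263. The part of these cell types, neutrophils included, in the level of each factor was not tested.

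The genes most like each factor were found by the mean absolute difference of centred log2(FPKM + 0.5) over the 9 libraries, among the 13035 genes whose mean FPKM reached 1. They are given as a description over libraries that share groups. Foxp3 was most like Il20rb (0.166) and Ccr8 (0.20), Gata3 most like Tcaf2 (0.209) and Ccdc80 (0.214), and Irf4 most like Nrp2 (0.177) and Mrc1 (0.204). Tcf7 was most like Gm9821 (0.108) and Satb1 (0.207), a chromatin organiser of thymocytes that was in the thymocyte list. Tbx21 was most like Gpr132 (0.0932) and the killer cell gene Prf1 (0.108), and Batf most like Sec61b (0.0602), a subunit of the protein translocation channel, and Naa20 (0.0684). Bcl6 was most like Zfp503 (0.0906) and Lonrf1 (0.0935), Maf most like Sec24a (0.0911) and Edem3 (0.0985), and Rora most like Gpm6b (0.0837) and Uhrf2 (0.0868). Between the factors themselves the closest pair was Maf and Rora (0.148), followed by Bcl6 and Tbx21 (0.284), Foxp3 and Irf4 (0.305), Gata3 and Irf4 (0.319) and Gata3 and Foxp3 (0.359). The farthest pair was Irf4 and Bcl6 (1.11).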

How the data were processed

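RNA sequencing of 9 mouse lung libraries was analysed from a deposited table of FPKM per gene, which the authors made from reads with Trimmomatic, HISAT2 and HTSeq on GRCm38.p6, per the submitters' processing notes (no versions in the sources used here). FPKM times gene length was a whole number of reads for 100% of values above 0, within 0.01 reads, and the library sizes behind the values followed median-of-ratios size factors. Values of log2(FPKM + 0.5) were fitted with limma 3.58.1 in R 4.3.3 (6 residual degrees of freedom, trend on the mean) for the 17716 genes whose mean FPKM reached 0.2. The fit served 3 comparisons, with Benjamini-Hochberg adjustment over all genes tested and a threshold of 0.05. Fold changes are on this log2 scale, which understates changes of low genes. With 3 against 3 libraries, the smallest p of an exact permutation test is 0.1. On simulated reads the fit recovered 23% of 2-fold and 97% of 4-fold changes among 17716 genes, simulated as DJ-1 KO OVA against WT OVA, with 8 false calls. The simulation changed 100 genes by each fold, drawn from genes above a floor of level in WT OVA. It gave all genes a common spread, with no outlying library and no length trend, so recovery and false calls in these data may differ. The 9 genes and the lists were chosen with earlier results of these data known. Named genes are the 9 factors, Park7, up to 4 genes of smallest p of each list described, the Cd3 genes, Cd4 and the 2 genes most like each factor; others were named after their values were seen. Alternatives changed the pseudocount, the filter, the scaling, the groups fitted and the model (limma-voom on recovered reads), or left out a library. Removal of trends with gene length and GC content (known for 97.8% of genes tested) was added after the data were seen. Promoter windows are RefSeq's. Some genes of the lists are counted but not reported here by name.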

Additional observations from a re-analysis of the deposited data

How the results depend on the processing

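Over 10 other settings and 9 fits that each left out a library, Gata3 and Irf4 kept their direction and their call in DJ-1 KO OVA against WT OVA. Foxp3 kept its direction in all of them, and its call in 5 of the 10 and 1 of the 9. Against WT PBS, Foxp3 kept its call in 9 of the 10 and 6 of the 9. The number of factors called in DJ-1 KO OVA against WT OVA was 6 after rescaling to equal FPKM sums, which moved the median of all genes to 0.46. That number was 2 to 5 without a library, with the 5 in the fit without DJ1_KO_OVA_266. Against WT PBS it was 5 with limma-voom and 2 to 5 without a library. Relative to the Cd3 genes, the count against WT OVA was 1 with a pseudocount of 1, without the filter and with length and GC trends removed, 0 with quantile normalization, only the compared groups or the length trend removed, and 0 to 3 without a library. Against WT PBS it was 4 with both trends removed, 1 in the other 5 of these settings and 0 to 3 without a library. Over all genes, the calls of DJ-1 KO OVA against WT OVA numbered 645 without the filter, 5031 with equal sums, 1330 with only the compared groups and 285 to 5683 without a library (fewest without DJ1_KO_OVA_267, most without DJ1_KO_OVA_266). Against WT PBS they numbered 669 without the filter, 782 with only the compared groups and 443 to 3888 without a library. For WT OVA against WT PBS they numbered 2 without the filter, 1 with a pseudocount of 1, 0 in the other 8 settings and 0 to 14 without a library (14 without WT OVA replicate 6). The causes of these shifts were not tested.

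Factors that were not called changed sign as follows. In DJ-1 KO OVA against WT OVA, Batf was 0.36 with equal sums, 0.14 with the length trend removed, 0.17 with both trends removed and -0.57 to 0.11 without a library, and Bcl6 was -0.028 with quantile normalization, -0.24 and -0.34 with the trends removed and -0.19 to 0.24 without a library. Relative to Cd3 in that comparison, Maf was -0.050 and -0.18 with the trends removed and -0.11 to 0.74 without a library, and Rora was -0.040 with quantile normalization, -0.38 and -0.32 with the trends removed and -0.16 to 0.46 without a library. Against WT PBS, Batf was -0.020 to 0.65 without a library. Relative to Cd3 there, Maf was -0.0089 with quantile normalization, -0.10 and -0.14 with the trends removed and -0.32 to 0.53 without a library, Rora was -0.069, -0.24, -0.18 and -0.21 to 0.36 in the same order, Batf was -0.92 to 0.27 and Tcf7 -0.084 to 1.12 without a library. In WT OVA against WT PBS, Gata3 was -0.065 and Rora -0.11 with equal sums, and Maf was 0.10 with the length trend removed, 0.097 with both removed and -0.17 to 0.10 without a library. Relative to Cd3 there, Gata3 was 0.021 with a pseudocount of 0.1, 0.028 with equal sums, 0.0078 with limma-voom, 0.041 and 0.13 with the trends removed and -0.24 to 0.22 without a library. Maf was 0.032 with both trends removed, Rora was 0.14 with either removal and -0.34 to 0.16 without a library, and Irf4 was -0.21 to 0.30 without a library.

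A planned fit with limma array weights could not be fitted to convergence and was dropped after its counts had been seen. It put a weight of 15.9 on WT PBS replicate 1 and called 1, 6 and 6 factors in WT OVA against WT PBS, DJ-1 KO OVA against WT OVA and DJ-1 KO OVA against WT PBS, where 12.6%, 54% and 67% of all genes were called. No paired analysis was possible because the groups share no replicate numbers. With 3 libraries a group the precision is set by their number, and reads limit mainly Foxp3, at 45 to 735 reads a library. Intervals come from the fit between libraries.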
